A study of Mus musculus with 4 samples.

Results

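The mouse immunoglobulin kappa light chain locus was described from 2 H3K4 ChIP-seq libraries of activated B cells, over every 1 kb bin of chr6:67500001-70750000 (mm9). That interval holds 3250 of the 2654886 bins of the nuclear genome. It was cut into a V portion with the variable segments, of 3155 bins, and a J-C end with the joining segments, the constant exon and the known enhancers, of 25 bins. The gene Rpia, which encodes ribose 5-phosphate isomerase, lies past the J-C end.

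The series set PA1-knockout (PA1-KO) B cells against PA1 wild-type (PA1-WT) B cells. It holds 4 samples, of which the 2 whose antibody is labelled H3K4 were used, 1 library per genotype. Cells of both genotypes came from spleens of mice aged 6 to 14 weeks, after removal of CD43-positive cells with magnetic beads. They were then cultured for 2 days with LPS at 25 µg/ml and either dextran-coupled antibody to IgD at 2.5 ng/ml or IL-4 at 5 ng/ml. Which of these was used for the H3K4 libraries, the methylation state the antibody recognizes, the strain, the number of mice and the way PA1 was deleted are not given in the labels. The chromatin of each culture was cut to mononucleosomes with MNase without crosslinking.

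A kappa light chain gene is assembled by joining 1 of many V segments to 1 of a few J segments, which precede a single constant exon, Igkc. The joining enzyme RAG cuts at recombination signals that flank each segment, and its RAG2 subunit binds histone H3 trimethylated at lysine 4. Joining deletes or inverts the DNA between the joined segments. Most mature mouse B cells have already joined kappa and express it, driven by the promoter of the joined V segment with an enhancer in the J-C intron, the 3′ enhancer and the distal enhancer Ed. PA1 is a partner of PTIP, a protein of the complex that carries the H3K4 methyltransferases MLL3 and MLL4.

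The J segments lie inside the enriched stretch of the interval with the most reads. Their recombination signals are shown first, on the plus strand of NCBIM37 (the assembly that mm9 also is). Each sequence starts a fixed distance before the annotated J segment and runs to its annotated end. The start of the recombination signal was not located, so a sequence may begin slightly before or inside it. Capitals mark the heptamer of the signal, which directly precedes the J segment.

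Igkj1, chr6:70672517-70672593: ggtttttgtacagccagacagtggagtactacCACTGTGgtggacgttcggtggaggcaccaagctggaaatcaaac
Igkj2, chr6:70672871-70672952: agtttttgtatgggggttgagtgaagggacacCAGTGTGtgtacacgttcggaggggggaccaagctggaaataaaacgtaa
Igkj3, chr6:70673178-70673252: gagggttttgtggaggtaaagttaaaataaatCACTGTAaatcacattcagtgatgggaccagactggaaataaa
Igkj4, chr6:70673503-70673579: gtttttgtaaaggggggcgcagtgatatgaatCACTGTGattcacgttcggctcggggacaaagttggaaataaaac
Igkj5, chr6:70673841-70673921: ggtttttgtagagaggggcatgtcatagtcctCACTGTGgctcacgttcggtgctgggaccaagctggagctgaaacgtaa

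The heptamers of Igkj1, Igkj4 and Igkj5 equal CACTGTG, and those of Igkj2 and Igkj3 each differ from it at 1 position. Igkj3 is known as a J segment that mouse B cells do not use.

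The enhancers are not in the gene annotation, so their places were taken by distance from Igkc, and letters of factors known to act there were searched within them on both strands. The first stretch below is from the J-C intron, where capitals mark GGGACTTTC, the NF-kB site of the kappa intronic enhancer. The others are from the 3′ enhancer span, where capitals mark GGAANNGAAA, the composite of a PU.1 site and an IRF4 site. All 3 are on the plus strand.

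J-C intron, chr6:70675719-70675787: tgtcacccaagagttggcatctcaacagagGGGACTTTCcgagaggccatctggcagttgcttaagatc
3′ enhancer span, chr6:70685671-70685740: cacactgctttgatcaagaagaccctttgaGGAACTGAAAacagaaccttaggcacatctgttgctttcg
3′ enhancer span, chr6:70686293-70686362: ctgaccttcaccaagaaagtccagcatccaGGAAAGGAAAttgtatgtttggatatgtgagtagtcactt

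GGGACTTTC had 1 match in the J-C intron, 680 bp before Igkc, and 2.60% of chromosome 6 stretches of the same length hold it. The GGAANNGAAA matches of the 3′ enhancer span start 8950 and 9572 bp past Igkc, and 29.8% of chromosome 6 stretches of that length hold this looser motif. Ed and the J-C intron held 1 match each to GGAANNGAAA, against 37.8% and 25.6% of stretches of their lengths. These matches describe letters in the genome and are not measured sites.

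Nuclear reads numbered 5259995 in the knockout and 5539475 in wild type. Values are given as RPM, reads per 1000000 after TMM scaling (a trimmed mean of ratios) over 12186 gene promoters. Ratios are knockout over wild type with an exact 95% interval that covers counting error only, and the PCR-amplified reads, without molecular identifiers, are not independent. As each genotype has a single library, the differences have no replicate check and no test was made. A bin, window or island was called when its ratio reached 1.5-fold either way, its interval excluded 1 and both libraries together had 20 or more reads. The promoters of 8 B cell marker genes had 376 to 570 knockout reads and 385 to 585 wild-type reads, whereas those of 6 T cell markers had 0 to 7 knockout reads and 0 to 3 wild-type reads. The promoters of 6 myeloid markers summed to 165 knockout reads and 228 wild-type reads, and the highest of them had 118 knockout reads and 171 wild-type reads. The PA1 promoter had 114 knockout reads and 261 wild-type reads, with a ratio of 0.498 (0.396 to 0.624).

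The kappa interval held 4739 knockout reads and 4354 wild-type reads, which is 938 RPM in the knockout and 755 RPM in wild type. These reads were piled at the J-C end and just upstream of it in both genotypes, with little per bin over most of the V portion. The V portion took 41.7% of the interval's knockout reads and 41.0% of its wild-type reads, on 97.1% of its length. The 10 kb upstream of Igkj1, whose last 1 kb is also in the J-C end, took 16.6% in the knockout and 14.9% in wild type. The J-C end took 29.0% of the interval's knockout reads (27.7 to 30.3) and 28.0% of its wild-type reads (26.7 to 29.4), on 0.744% of its length. Of the 3250 bins, 1929 (59.4%) had no read in either library, and 1918 of these were in the V portion, where 60.8% of bins were empty. None of the 25 bins of the J-C end was empty.

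Only reads that map to 1 place can be counted, and the V segments are a family of similar copies. Of the positions of the V portion, 48.8% start a 25-base stretch found once in the genome, against 91.2% in the J-C end. All kappa reads of both libraries sat at such positions. Densities are therefore also given per unique kb, 1000 such positions. The J-C end had 12.3 RPM per unique kb in the knockout and 9.59 in wild type. Windows of 1 kb either side of the V segments' 5′ ends had 0.950 in the knockout and 0.890 in wild type, and the V portion outside them had 0.196 in the knockout and 0.143 in wild type. The excess of the J-C end was thus also present per mappable base.

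**Figure D1:**
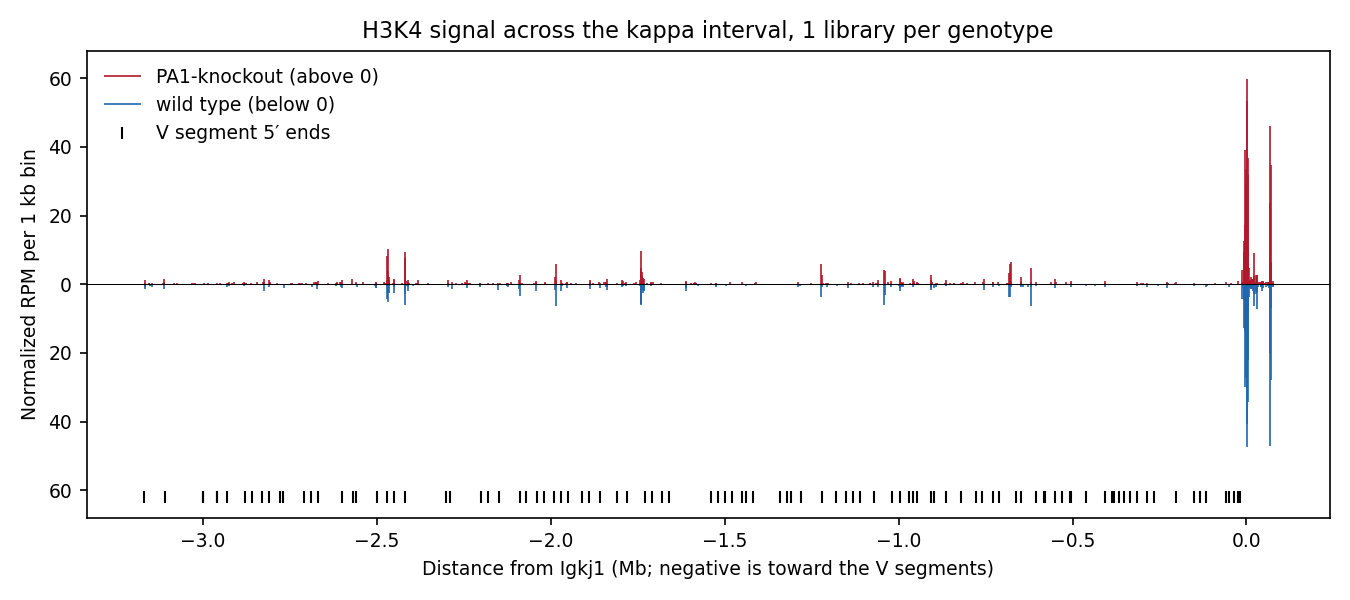
Scaled reads (RPM) in each 1 kb bin across the kappa interval, against distance from Igkj1, with the knockout library drawn above 0, the wild-type library below 0, and the V segment 5′ ends as ticks. In both libraries the tall bins are at the J-C end, just upstream of it and at Rpia, and 59.4% of bins hold no read in either library.

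A single enriched island of 14400 bp, chr6:70664201-70678600, covered the J segments, the J-C intron and Igkc and began upstream of Igkj1. It held 1893 knockout reads and 1639 wild-type reads, and among 24957 islands of the genome it ranked 20th by reads and 3rd by length. Its ratio was 1.32 (1.23 to 1.41). Over its surroundings, in 81 windows of 200 bp, the profiles of the libraries had a Pearson r of 0.950, a description of shape between windows that share neighbours and mappability.

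Upstream of Igkj1 lies the region from which germline kappa transcripts start. The 10 kb before Igkj1, whose last 1 kb is also in the J-C end, had 789 knockout reads and 650 wild-type reads, with a ratio of 1.39 (1.25 to 1.54). Its interval was above 1 under every scaling tried, at 1.28 (1.15 to 1.42) with total reads, 1.13 (1.01 to 1.25) with reads outside islands and promoters (background reads) and 1.17 (1.06 to 1.30) with the genome's GC trend subtracted. Its signal had several summits and dips, with the highest pair of summits around a narrow dip. The summit window chr6:70669001-70669200 had 53 knockout reads and 60 wild-type reads, and the window at chr6:70669801-70670000 had 46 knockout reads and 41 wild-type reads. Between them, 3.06 kb upstream of Igkj1, chr6:70669401-70669600 had 13 knockout reads and 7 wild-type reads. A further dip, chr6:70670201-70670400, had 8 knockout reads and 7 wild-type reads. These dips and summits were present in both libraries.

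The J cluster, from Igkj1 to Igkj5 (ENSMUSG00000076604.1 to ENSMUSG00000076608.1), had 363 knockout reads and 314 wild-type reads, at 52.6 RPM per unique kb in the knockout and 39.9 in wild type. Its ratio was 1.32 (1.13 to 1.54). Windows of 200 bp either side of each J segment overlap their neighbours and share reads, so they are not separate measurements. Igkj1 had 72 knockout reads and 69 wild-type reads, with a ratio of 1.19 (0.844 to 1.68). Igkj2 had 117 knockout reads and 97 wild-type reads, 1.38 (1.04 to 1.82). Igkj3 had 109 knockout reads and 82 wild-type reads, 1.52 (1.13 to 2.05). Igkj4 had 129 knockout reads and 100 wild-type reads, 1.47 (1.13 to 1.93), and Igkj5 had 138 knockout reads and 136 wild-type reads, 1.16 (0.907 to 1.48). The Igkj3 window was the only J window past the 1.5-fold rule, and its interval covered the ratio of every other J window. Its ratio was 1.40 when scaled to total reads, 1.23 when scaled to background reads and 1.13 after the GC trend was subtracted, all under the threshold.

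The J-C intron, which carries the intronic enhancer, had 575 knockout reads and 506 wild-type reads, at 45.4 RPM per unique kb in the knockout and 35.0 in wild type, with a ratio of 1.30 (1.15 to 1.46). With the GC trend subtracted the ratio was 0.970 (0.859 to 1.09), on the other side of 1. That crossing depends on the GC classes, which have a boundary at 40%. The intron, at 38.8% GC, was corrected by the class median log2 ratio of 0.42. The J cluster, at 42.2% GC, was corrected by 0.24 and had 1.12 (0.959 to 1.30). The highest 200 bp window of the locus lay in the J-C intron, 1.94 kb past Igkj1, with 80 knockout reads and 71 wild-type reads. Closer to Igkc the signal dipped. The windows starting at 70675201, 70675401 and 70675601 had 31, 27 and 23 knockout reads and 14, 13 and 17 wild-type reads, and the next window had 53 in each library. The third of these windows holds the GGGACTTTC match printed above. Both libraries had the dip, with fewer reads in wild type.

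Igkc (ENSMUSG00000076609.1, chr6:70676429-70676751), the constant exon, had 77 knockout reads and 85 wild-type reads, at 47.2 RPM per unique kb in the knockout and 45.6 in wild type. Its ratio of 1.03 (0.750 to 1.42) was the lowest of the island's elements. The log2 difference between the J cluster's ratio and that of Igkc, 0.35 (-0.14 to 0.85), and between the J-C intron's and that of Igkc, 0.33 (-0.15 to 0.80), each had an interval that included 0, and with the GC trend subtracted they were 0.20 and -0.01.

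**Figure D2:**
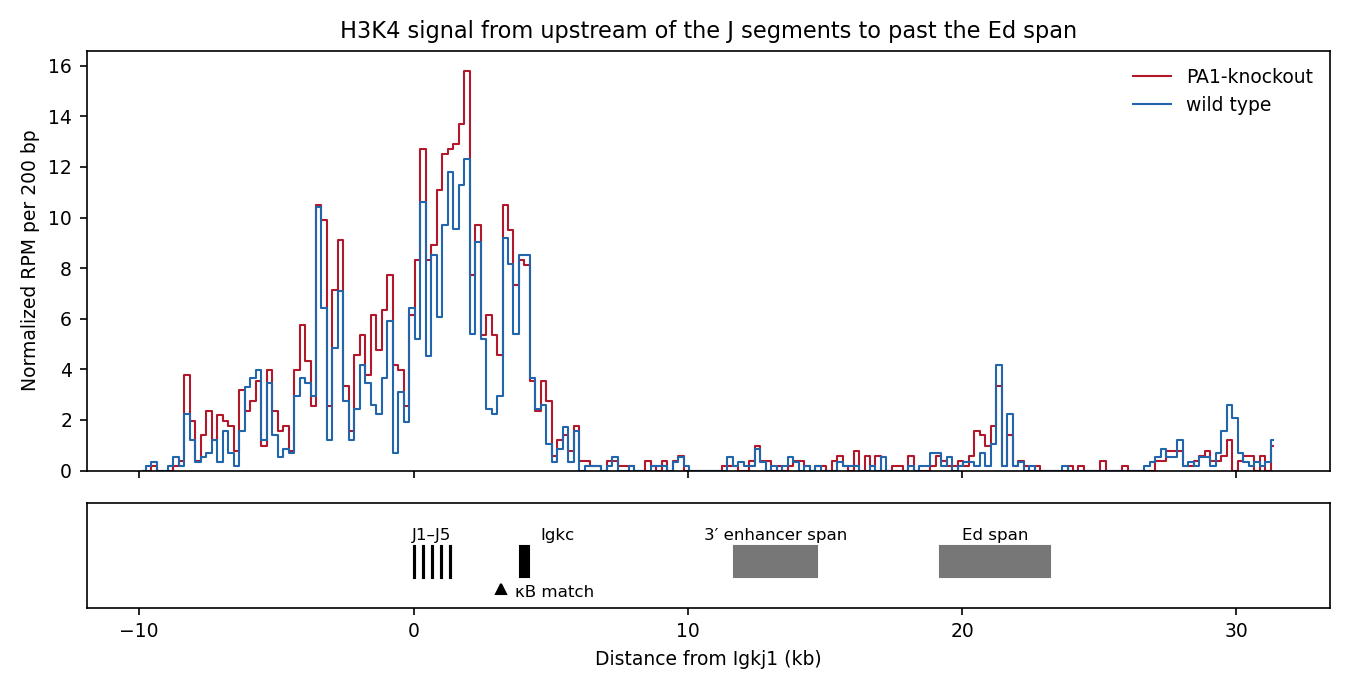
Scaled reads (RPM) in 200 bp windows around the J segments, Igkc and the enhancer spans, against distance from Igkj1, for the knockout and wild-type libraries. Both profiles have summits on either side of the dip 3.06 kb upstream of Igkj1, a maximum 1.94 kb past Igkj1, a dip before Igkc and a small peak in the Ed span.

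Of the enhancers past Igkc, Ed had the more signal. The 3′ enhancer span, chr6:70684251-70687251, had 19 reads in each library, at 1.29 RPM per unique kb in the knockout and 1.13 in wild type, and held no island. The Ed span, chr6:70691751-70695751, had 70 knockout reads and 64 wild-type reads, at 3.67 RPM per unique kb in the knockout and 2.94 in wild type. Ed held an island at chr6:70693001-70694400 with 54 knockout reads and 50 wild-type reads, whose highest 200 bp window had 17 knockout reads and 24 wild-type reads. The ratios were 1.14 (0.572 to 2.28) for the 3′ enhancer span and 1.25 (0.877 to 1.78) for Ed, and both intervals included 1. A difference within these intervals was not detectable at this depth.

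Past Ed, 1 bin of the interval was called lower, a call that 5.20% of tested bins of the genome also had. The bin chr6:70702001-70703000 had 14 knockout reads and 42 wild-type reads, with a ratio of 0.380 (0.192 to 0.711), and the island in it had 9 knockout reads and 36 wild-type reads, 0.285 (0.121 to 0.604). In its window at chr6:70702401-70702600 the knockout had 0 reads and wild type 12. This bin was called lower under all 4 alternatives tried, 3 other scalings and no fragment shift. The whole stretch from Ed to Rpia had 80 knockout reads and 117 wild-type reads, 0.780 (0.580 to 1.05), and the J-C end's ratio exceeded it by 0.72 on the log2 scale (0.29 to 1.14). Both rest on that bin. Without it the stretch had 66 knockout reads and 75 wild-type reads, with a ratio interval of 0.710 to 1.42, and the J-C end exceeded it by 0.35 (-0.14 to 0.84).

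Rpia was the neighbouring gene with signal, in an island of 561 knockout reads and 588 wild-type reads. Its promoter had 393 knockout reads and 428 wild-type reads, more than 96.3% of promoters, and a ratio of 1.05 (0.912 to 1.20). The J-C end's ratio exceeded that of Rpia by 0.29 on the log2 scale (0.07 to 0.52), but by 0.01 (-0.22 to 0.24) with the GC trend subtracted, which put Rpia at 1.08 (0.941 to 1.24). The other genes with a promoter in the interval were Gm11145, with 0 knockout reads and 1 wild-type read, and Gm11143 and Gm10360, with none in either library.

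**Figure D3:**
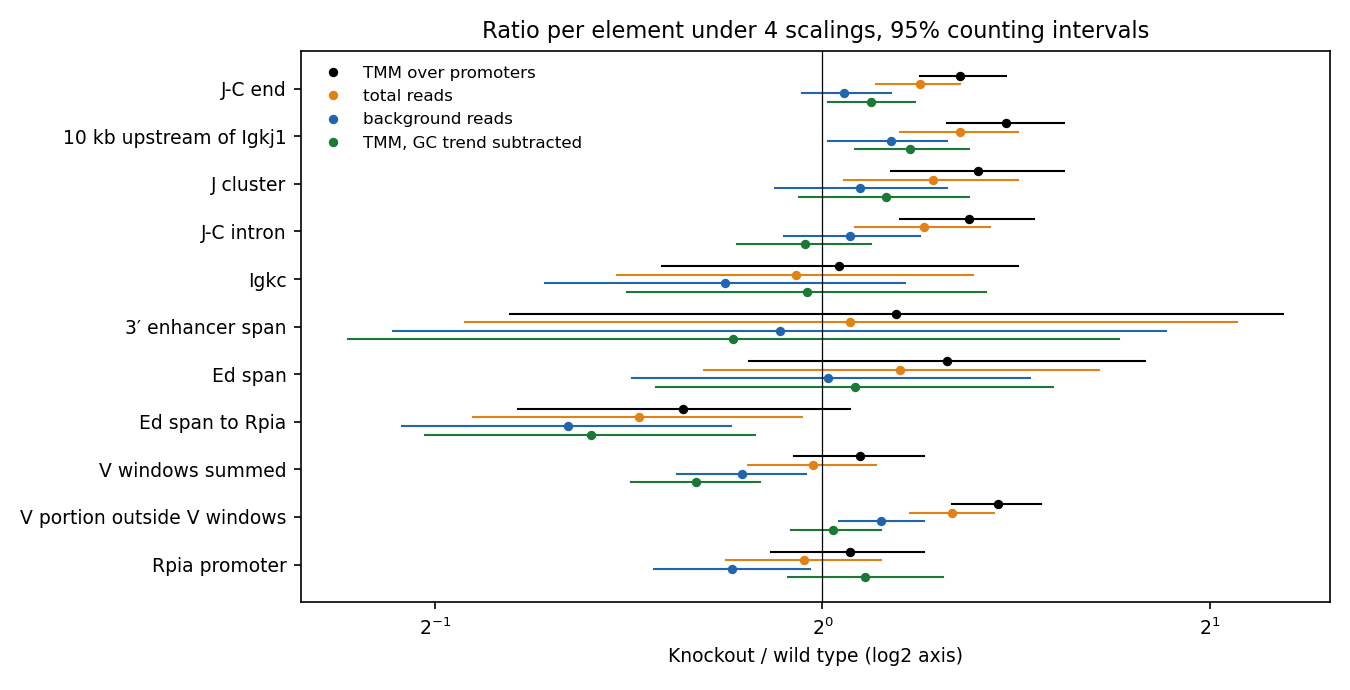
Ratio of knockout to wild type, on a log axis, for each named element of the locus, with its 95% interval for counting error and the ratios under the other scalings. The 10 kb upstream of Igkj1, the J cluster and the J-C intron lie above 1 with TMM scaling, Igkc, the 3′ enhancer span, Ed and the Rpia promoter have intervals that include 1, and the points move down when scaled to background reads.

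The J-C end as a whole had 1373 knockout reads and 1220 wild-type reads, 272 RPM in the knockout and 212 RPM in wild type, or 1.28 (1.19 to 1.39). This ratio depends on the scaling. It was 1.19 with total reads, 1.04 (0.965 to 1.13) with reads outside islands and promoters, and 1.09 (1.01 to 1.18) after the genome's trend with GC content was subtracted. The median of all bins moved by -0.12 with total reads and by -0.30 with background reads on the log2 scale. Across the genome, bins under 40% GC had a median log2 ratio of 0.42 and bins of 40 to 45% GC had 0.24, while bins of 65% or more had -0.35. The J-C end is 40.6% GC, the whole interval 38.9% and the Rpia promoter window 54.1%. The part of library base composition in these ratios was not tested. The subtraction removes any difference that goes with GC content, whether it comes from the libraries or from the genotypes, so these cannot be told apart. In bulk chromatin, a mark on more of the cells' alleles and more of the mark per allele cannot be told apart.

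Differences between ratios within the locus do not depend on the depth scaling, but they do depend on the GC trend, which was subtracted in classes of GC content with a boundary at 40%. That between the J-C end and the V windows also moved with window width. It is given below for windows of 1 kb either side, and was 0.42 with 500 bp and 0.19 with 2 kb. The J-C end's log2 ratio exceeded that of the summed V windows by 0.27 (0.07 to 0.47), and by 0.45 (0.25 to 0.65) with the trend subtracted. Against the V portion outside those windows it differed by -0.09 (-0.25 to 0.07), or 0.09 (-0.07 to 0.25) with the trend subtracted. Against the whole V portion it differed by 0.02 (-0.12 to 0.17), or 0.20 (0.06 to 0.35). The J-C end, at 40.6% GC, lies just above the 40% boundary and was corrected by 0.24. The V windows, the V portion outside them and the whole V portion lie just below it and were corrected by 0.42. The rise of these differences after subtraction is that step between classes. It rests on which side of the boundary each set lies. The V windows themselves were below the rest of the V portion, by -0.36 (-0.56 to -0.16). The subtraction could not change this value, because both sets are under 40% GC and so got the same correction. The Rpia promoter stood at -0.03 relative to the V windows (-0.28 to 0.23), but at 0.44 (0.18 to 0.70) with the trend subtracted. The J-C end's ratio was thus closer to that of the sparse reads between V segments than to that of the V windows, either way. Those sparse reads had 0.196 RPM per unique kb in the knockout and 0.143 in wild type. Over the genome, reads outside islands and promoters numbered 1344765 in the knockout and 1246423 in wild type. The part of such background in the sparse reads was not tested.

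The V segments carried little H3K4 signal. Of 102 V segments, 5 (Igkv10-96, Igkv4-68, Igkv8-18, Igkv6-13 and Igkv3-9) had no read in either library, 81 had 1 to 19 reads in both together and 16 had 20 or more. The median was 2.00 reads in the knockout and 3.00 in wild type. Protein-coding promoters counted in windows of the same width had a median of 43.0 in the knockout and 63.0 in wild type. Of these promoters, 58.7% reached 20 reads, against 15.7% of V segments. Each gene was counted at its transcript start with the most reads, which raises the promoter values, whereas each V segment has 1 fixed 5′ end. Uniqueness limits the V counts. The median V window had 52.1% unique positions, 47 of the 102 had under 50%, and Spearman's rho between unique share and reads was 0.407 over the 102 windows.

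The reads of the V windows gathered at few segments. The 10 V segments with the most reads held 48.8% of the summed V reads in the knockout, 278 of 570, and 41.1% in wild type, 251 of 610. Igkv2-109 led with 77 knockout reads and 48 wild-type reads. Igkv19-93 had 41 knockout reads and 43 wild-type reads, and Igkv4-58 had 40 knockout reads and 24 wild-type reads. These 3 were above every other V segment in the sum of the libraries. Their upstream sequences hold the octamer of immunoglobulin V promoters, which the factors Oct1 and Oct2 bind, and are printed in the direction of transcription with ATTTGCAT in capitals.

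Igkv2-109, chr6:68252306-68252393, plus strand: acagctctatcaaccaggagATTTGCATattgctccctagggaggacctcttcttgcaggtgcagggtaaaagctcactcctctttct
Igkv19-93, chr6:68686789-68686876, minus strand: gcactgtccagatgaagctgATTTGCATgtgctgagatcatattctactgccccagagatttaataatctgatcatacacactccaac
Igkv4-58, chr6:69450820-69450907, minus strand: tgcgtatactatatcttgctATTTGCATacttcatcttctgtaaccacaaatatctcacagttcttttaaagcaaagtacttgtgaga

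The octamer lay 107 bp before the annotated 5′ end of Igkv2-109, 98 bp before that of Igkv19-93 and 348 bp before that of Igkv4-58. It was found within 500 bp upstream of 74 of the 102 V segments (72.5%), searching ATGCAAAT and its reverse complement ATTTGCAT, in all 74 as ATTTGCAT and at a median distance of 106 bp. Of protein-coding genes, 2.90% held it in a window of that length, although their annotated start is a transcription start and that of many V segments is not. Octamer-bearing V segments had a median of 6.50 reads in both libraries together and the others 5.00. The octamer was thus present at more V segments than the 15.7% that reached 20 reads.

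The other segments of the leading 10 had fewer reads. Gm16637, a V segment whose RefSeq name in GRCm38.p6 is Igkv10-96, had 20 knockout reads and 29 wild-type reads, and Igkv14-111 had 25 knockout reads and 20 wild-type reads. Igkv12-44 had 20 knockout reads and 17 wild-type reads, and Igkv5-48 had 17 knockout reads and 19 wild-type reads. At these counts the order of the libraries differed between segments. Igkv1-110 had 16 knockout reads and 18 wild-type reads, and Igkv14-126 had 13 knockout reads and 12 wild-type reads. Igkv4-81 had 9 knockout reads and 21 wild-type reads, with a ratio of 0.489 (0.197 to 1.11), the lowest of the 16. All of these ratios had intervals that included 1.

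V segments with 20 or more reads were found on both strands, 7 on the plus and 9 on the minus strand. Igkv3-1, the segment nearest to the J segments at 19.0 kb, had 2 knockout reads and 1 wild-type read. The farthest, Igkv2-137 at 3170 kb, had 9 knockout reads and 12 wild-type reads. In blocks of 500 kb, the density was highest at chr6:68000001-68500000, with 0.364 RPM per unique kb in the knockout and 0.240 in wild type, and lowest in the last block, next to the J segments, with 0.140 in the knockout and 0.131 in wild type. The median V segment on the plus strand had 7.00 reads in both libraries together and that on the minus strand 5.00.

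By family, Igkv4, with 26 segments, had 91 knockout reads and 115 wild-type reads in all. Igkv2, with 4 segments, had 100 knockout reads and 76 wild-type reads, mostly from Igkv2-109. Igkv12, with 7 segments, had 55 knockout reads and 58 wild-type reads, and Igkv1, with 11, had 55 knockout reads and 56 wild-type reads.

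Summed over all V segments, reads were densest in the first 400 bp past the 5′ end. The first 200 bp had 118 knockout reads and 130 wild-type reads, 2.08 RPM per unique kb in the knockout and 2.01 in wild type. The next 200 bp had 97 knockout reads and 135 wild-type reads, 1.65 RPM per unique kb in the knockout and 2.01 in wild type. At 1800 to 2000 bp upstream the density had dropped to 0.157 in the knockout and 0.0915 in wild type. The V windows therefore hold a local excess over the V portion. They took 28.8% of its knockout reads and 34.2% of its wild-type reads, on 7.72% of its unique positions.

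**Figure D4:**
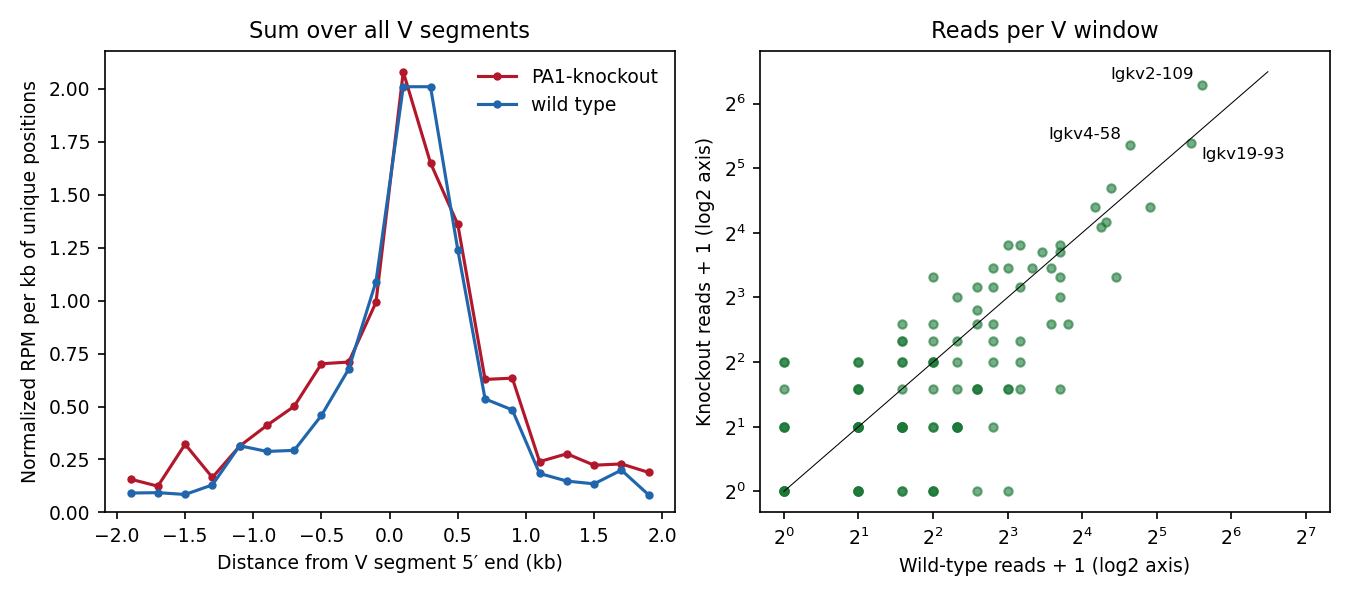
Reads in windows around the V segments for the knockout and wild-type libraries, summed over all segments by distance from the 5′ end as RPM per unique kb (left), and per segment as knockout reads against wild-type reads on log2 axes with 1 added (right, with the line of equal reads). The summed profile is highest in the first 200 bp past the 5′ end in the knockout, at 2.08, and level at 2.01 over the first 2 windows in wild type, and Igkv2-109, Igkv19-93 and Igkv4-58 stand above the other segments.

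Between genotypes, the summed V windows had 570 knockout reads and 610 wild-type reads, 113 RPM in the knockout and 106 RPM in wild type, or 1.07 (0.950 to 1.20). The rest of the V portion had 1406 knockout reads and 1174 wild-type reads, with a ratio of 1.37 (1.26 to 1.48), which was 1.11 (1.03 to 1.20) with background scaling and 1.02 (0.945 to 1.11) with the GC trend subtracted. With background scaling the V windows' ratio was 0.866 (0.771 to 0.972), and with the GC trend subtracted 0.797 (0.710 to 0.895), so its direction turned with the scaling. The V windows' ratio was 0.958 with windows of 500 bp either side and 1.13 with windows of 2 kb. Of the 16 V windows with 20 or more reads, 13 had a ratio above 1, with a median of 1.19 and a range of 0.489 to 2.12. The call rule took 2 of the 16 as higher and 0 as lower. Over 13130 promoters of the genome it took 0.739% as higher and 5.45% as lower. Promoters are an unlike set, as most of them also set the TMM scaling, each at its gene's strongest transcript start. Of 60358 bins of the genome, 6.00% were called higher and 5.20% lower. The V windows called higher were Igkv2-109 and Igkv4-58. Igkv2-109 had 15.2 RPM in the knockout and 8.32 in wild type, 1.83 (1.26 to 2.68). Igkv4-58 had 7.92 RPM in the knockout and 4.16 in wild type, 1.90 (1.12 to 3.30). The island on Igkv4-58, at 1.52 (0.834 to 2.82), and the bin starting at 69450001, at 1.63 (0.903 to 3.00), were not called. Scaled to background reads neither V window was called. With the GC trend subtracted, 1 V window was called higher and 1 lower. The unique shares of Igkv2-109 and Igkv4-58 were 47.3% and 46.0%. Across the 102 windows the libraries had a Pearson r of 0.751 on log2(reads + 1) and a Spearman's rho of 0.699, with mappability shared between them.

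Islands inside the V portion were few, and only some lay at V segments. Of 18 islands of the interval, 12 were in the V portion, 6 touching a V window and 6 not. The call rule took 3 of the 18 as higher and 1 as lower, against 3.35% higher and 5.39% lower over the genome's islands. The higher islands were all in the V portion. The island at chr6:68202201-68204400, near Igkv14-111, had 106 knockout reads and 62 wild-type reads, with a ratio of 1.95 (1.41 to 2.71). At chr6:68252201-68253600, on Igkv2-109, there were 80 knockout reads and 45 wild-type reads, 2.03 (1.39 to 2.99). At chr6:69994001-69994400, 14226 bp from the nearest V segment, Igkv7-33, there were 28 knockout reads and 5 wild-type reads, 6.39 (2.44 to 21.2).

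Other islands of the V portion were not called. One without a V segment, at chr6:68930201-68933000 and 7754 bp from Igkv4-81, had more reads than any V window, with 91 in the knockout and 99 in wild type, and a ratio of 1.05. The island at chr6:69631401-69632600, 18161 bp from Igkv4-50, had 33 knockout reads and 50 wild-type reads, 0.753, and that at chr6:69990801-69991800 had 35 knockout reads and 32 wild-type reads, 1.25. On Igkv19-93 the island had 28 knockout reads and 36 wild-type reads, 0.888, and at chr6:70053001-70053800 the island had 24 knockout reads and 36 wild-type reads, 0.761. All of these islands had signal in both genotypes, whether at a V segment or not.

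By 1 kb bins, 51 of the 3250 had the 20 reads needed, 25 of them in the V portion and 10 in the J-C end. Of the 51, 9 were called higher and 1 lower, against 6.00% higher and 5.20% lower of 60358 bins of the genome. The 10 bins of the J-C end had a median ratio of 1.29 (range 0.806 to 1.93), with 9 of 10 above 1. The 8 bins upstream of Igkj1 had a median of 1.32, with 7 above 1, and the 25 V bins had a median of 1.14 (range 0.609 to 7.53), with 13 above 1. With TMM scaling, the bins of the J-C end and just upstream leaned one way, while V bins lay on both sides of 1. The former are mostly adjoining parts of 1 island, so they are not separate measurements. Most V bins had fewer reads than most of them, and genome bins of 20 to 49 reads had quartiles of 0.702 and 1.34. With background scaling the J-C end as a whole was at 1.04 (0.965 to 1.13).

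The bins called higher included 3 in the large island around the J segments. chr6:70671001-70672000, which ends just before Igkj1, had 147 knockout reads and 87 wild-type reads, 1.93 (1.47 to 2.54). chr6:70664001-70665000 had 40 knockout reads and 26 wild-type reads, 1.76 (1.05 to 3.00), and chr6:70665001-70666000 had 48 knockout reads and 26 wild-type reads, 2.11 (1.28 to 3.54). These last bins form the upstream edge of the large island. The remaining 6 were in the V portion. The bins starting at 68202001 and 68203001 had 41 and 52 knockout reads and 24 and 29 wild-type reads. Those on Igkv2-109, starting at 68252001 and 68253001, had 48 and 38 knockout reads and 34 and 17 wild-type reads. The bin starting at 68931001 had 49 knockout reads and 34 wild-type reads, 1.64 (1.04 to 2.63), and that starting at 69994001 had 33 knockout reads and 5 wild-type reads, 7.53 (2.92 to 24.7), at 93.1% unique positions. Only the bins at 68253001 and 69994001 were called higher under all 4 alternatives. With the GC trend subtracted, 2 bins in place of 9 were called higher.

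None of the 5 strongest bins reached 1.5-fold. chr6:70674001-70675000, in the J-C intron, had 302 knockout reads and 274 wild-type reads, 1.26 (1.06 to 1.49), and chr6:70673001-70674000, over the J segments, had 270 knockout reads and 234 wild-type reads, 1.32 (1.10 to 1.58). The bin of the Rpia promoter had 233 knockout reads and 271 wild-type reads, 0.981. The bin of Igkc had 186 knockout reads and 197 wild-type reads, 1.08, and the upstream summit at 70669001 had 198 knockout reads and 173 wild-type reads, 1.31 (1.06 to 1.61). Genome bins of 400 or more reads had a median ratio of 1.08, with quartiles of 0.987 and 1.19. Both J and intron bins were thus above the upper quartile of bins of their level with TMM scaling. Those genome bins were matched by read level and not by GC content. With the GC trend subtracted, the J cluster as a whole had a ratio of 1.12 and the J-C intron 0.970.

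**Figure D5:**
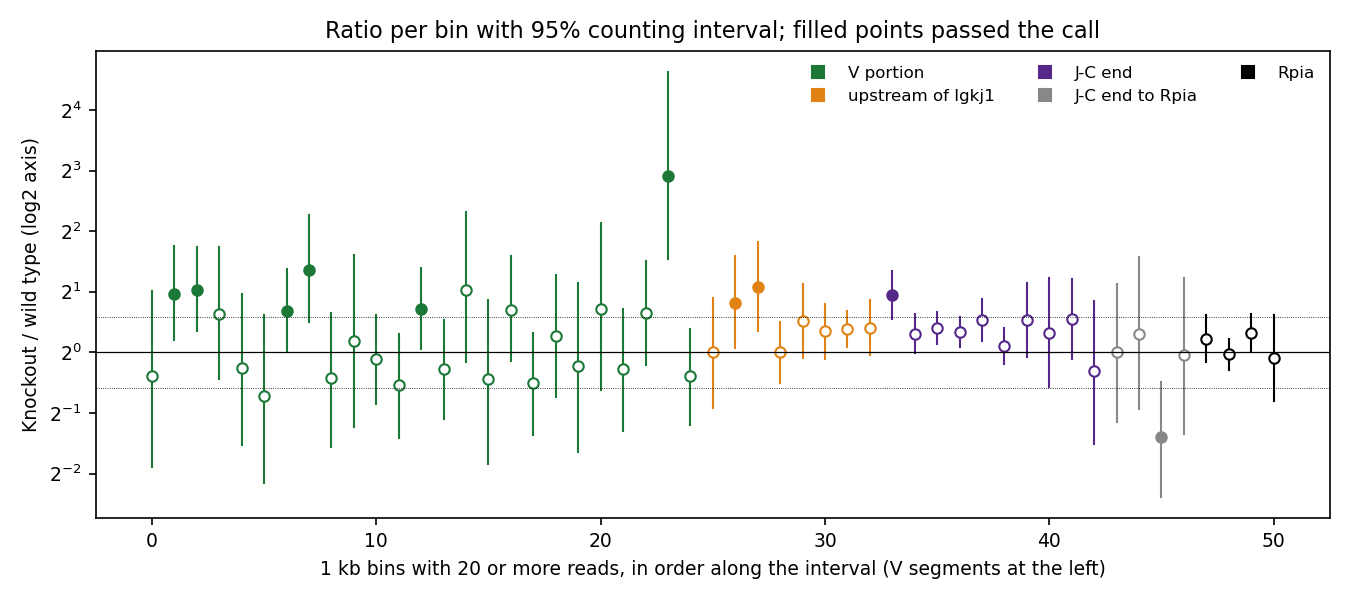
Ratio of knockout to wild type, on a log axis, for the 51 bins of the interval with 20 or more reads, in order along the interval, coloured by part of the locus, with filled points for called bins, bars for the 95% counting interval and dotted lines at 1.5-fold. The J-C end bins lie between 0.806 and 1.93, the V bins between 0.609 and 7.53, and the bin called lower, at 0.380, lies between Ed and Rpia.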

How the data were processed

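The authors deposited read positions (used as 1-based), not counts or normalized values. The build was mm9, and SICER is also named, per the submitters' processing notes; no source used here names the aligner. Reads span 25 bases and no position and strand repeats within a file, so repeated reads were absent from the deposited files and strong sites are slightly compressed: the bin with the most reads filled 15.1% of its positions.

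Each read was moved 75 bp into its fragment and counted in 1 kb bins, windows of 1 kb either side of V segment 5′ ends (GENCODE vM1, merged where they overlap) and elements placed from Igkc. Libraries were scaled by TMM over 12186 protein-coding promoters with 50 or more reads (trims of 30% and 5%), a depth ratio of 0.876, against 0.950 by total and 1.08 by reads outside islands and promoters. Ratios have exact conditional binomial (Clopper-Pearson) 95% intervals; shares have Clopper-Pearson intervals. A ratio of ratios has an interval from its 4 counts. Islands were called on the pooled libraries from windows of 200 bp at a Poisson probability under 1e-05, over 80% of the genome, with gaps up to 200 bp and 20 or more reads. At 7461 positions of the interval covered 3 or more times in both libraries, 0 were mismatched in 80% or more of the reads in either.

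Named were the J-C elements, the 10 V segments with most reads and the nearest and farthest, every called V segment and bin, the 5 bins and 10 islands with most reads, and genes with a promoter in the interval. Members and lists were chosen with earlier results of these data known. Python 3.11.15, numpy 2.4.6, scipy 1.17.1 and pandas 2.3.3 were used. The call rule, the TMM scaling and the search for unique positions were tested on simulated data. The other 2 samples were not used here.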

Additional observations from a re-analysis of the deposited data

How the results depend on the processing

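With 1 library per genotype, no replicate can be left out. No paired analysis was possible because each genotype has 1 library. Over all results and alternatives, 77 values kept their call or stayed within the counting interval or 1.5 times the count, 24 moved, and 14 (single bins under single alternatives) lost their call. No value past the call rule changed sign, but the ratios of the V windows, the J-C intron, Igkc and the 3′ enhancer span, which were not called, turned below 1 under some alternatives. The J-C end ratio of 1.28 became 1.19 with total reads, 1.04 with reads outside islands and promoters (background) and 1.09 with the GC trend subtracted. For the V windows summed, 1.07 became 0.984 with total reads, 0.866 with background and 0.797 with GC. It became 0.958 with 500 bp windows, 1.13 with 2 kb windows and 0.963 with windows of 90% or more unique positions. The J cluster's 1.32 became 1.07 with background and 1.12 with GC, and the J-C intron's 1.30 became 1.05 and 0.970. Without bins of other protein-coding genes, the J-C end held 33.4% of knockout and 33.0% of wild-type reads. V windows called higher, 2, became 0 with background, 1 with GC and 0 with 500 bp windows; those called lower, 0, became 1 with background, 1 with GC, 1 with 2 kb windows and 2 with no read minimum. Bins called higher, 9, became 5 with background, 2 with GC and 15 with no minimum; bins called lower, 1, became 4 with no minimum. The cause of these shifts was not tested. Depth limits the V segments, of which 81 of 102 had 1 to 19 reads. Subtracting GC from differences of ratios, and leaving out the bin called lower, were chosen after seeing the data.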
